A study of Mus musculus with 9 samples.

Results

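The genes described here are 10 transcripts of Sertoli cells, measured in a testis cell fraction enriched for spermatogonial stem cells (SSC) and in induced pluripotent stem cells (iPSC). They are Clu, Cst12, Defb19, Sox9, Amh, Wt1, Gatm, Gata4, Serpina5 and Inha. Each gene was found by its position in the GRCm38 build, and where several loci of the deposited table matched, the locus with the highest mean over the 9 libraries was used. A locus of their own was found for 8 of these 10, among the 11743 genes that could be named in this way. The other 2, Amh and Inha, lay in intervals that also hold neighbouring genes, and the values of those intervals are given apart.

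Sertoli cells are the somatic nurse cells of the seminiferous tubule. In the fetal gonad they arise under the control of Sry and Sox9, and they secrete Amh, inhibin and the growth factors that germ cells need, among them Gdnf, the ligand of the receptor made of Gfra1 and Ret. Tight junctions between Sertoli cells later form the barrier that shields the more advanced germ cells.

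The RNA-seq data comprised 3 libraries each of SSC, SSCiPSC (iPSC derived from SSC) and fiPSC (iPSC derived from fetal fibroblasts). All cells, the SSC included, came from mice with a pair of engineered alleles. Gt(ROSA)26Sortm1(rtTA*M2)Jae supplies the doxycycline-dependent activator, and Col1a1tm3(tetO-Pou5f1,-Sox2,-Klf4,-Myc)Jae carries the reprogramming factors under its control. SSC were testis cells of postnatal day 6, labelled as passage 0. The suspension was first plated to let somatic cells adhere, and the floating cells were selected with magnetic beads for Gfra1, so that the group is defined by a surface marker and not by purity. The iPSC were clonal lines derived with doxycycline and LIF, labelled as passages 10 to 11 and selected for SSEA1 before RNA extraction, for which the study's methods give later passages than the labels. The labels do not say whether the 3 libraries of a group came from separate animals or lines, so p-values measure the spread between these libraries only. The SSC libraries were shallow, with estimated depths of 1.77, 4.62 and 1.38 in replicates 1, 2 and 3, against 13.2 to 17.6 for the iPSC libraries, each counted in 1000000 fragments.

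The level of each gene was given as FPKM (fragments per kilobase of transcript per 1000000 mapped fragments), which can be compared between genes. In SSC, the 8 genes summed to 1419, 1457 and 1227 FPKM in replicates 1, 2 and 3. In the 6 iPSC libraries the same sum was between 4.20 and 8.60 FPKM. Every SSC library was above every iPSC library for each of the 8 genes, as for 28.7% of all loci tested against SSCiPSC and 28.5% of those tested against fiPSC. Among the 8, Cst12, Defb19 and Serpina5 (3 genes) were listed at 0 in all iPSC libraries. Bulk RNA cannot tell apart fewer cells of a type and less RNA per cell.

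**Figure D1:**
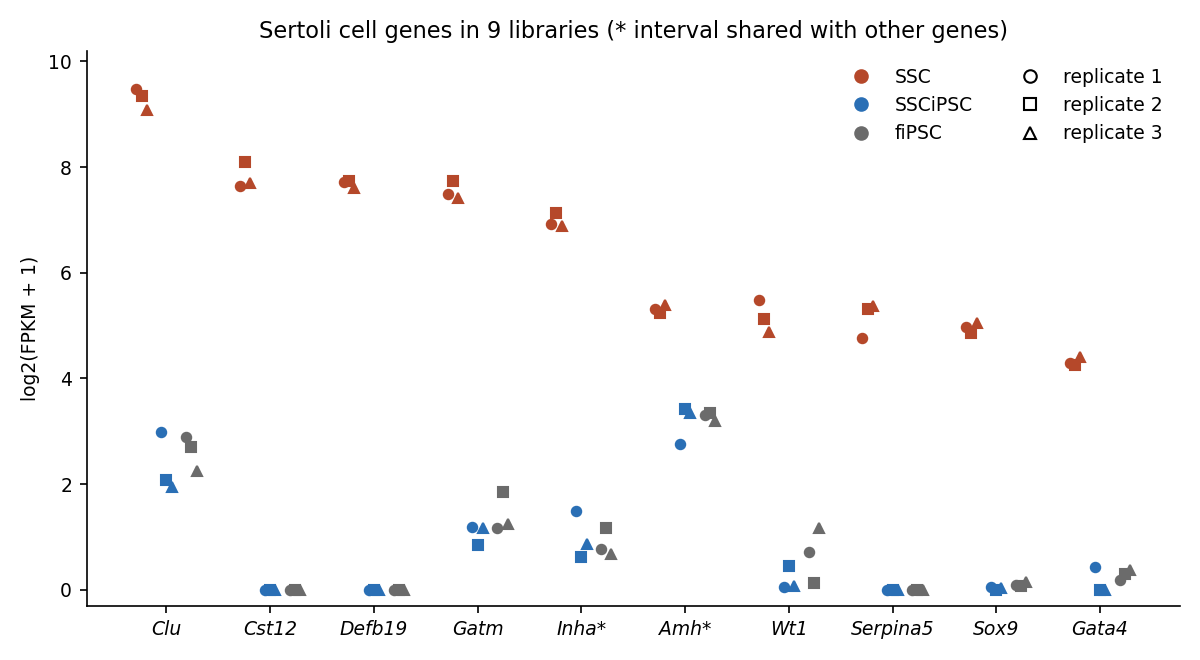
Level of the 10 Sertoli cell genes as log2(FPKM + 1), 1 point for each library, with colours for SSC, SSCiPSC and fiPSC and symbols for replicates. The 3 SSC libraries lie above all 6 iPSC libraries for every gene, and the gap is smallest for the interval that holds Amh.

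The RefSeq table of start sites held 4 of the 10 genes (Cst12, Gatm, Serpina5 and Inha). Shown here are the 250 bases before the RefSeq start site of Cst12 and Serpina5, which were listed at 0 in all iPSC libraries, of Gatm, which was not, and of Cst9, a gene of the same cluster as Cst12 on chromosome 2 with a like pattern. They are given 5′ to 3′ on the strand of the gene in GRCm38.p6. Capitals mark matches on either strand to the SOX letters ACAAAG or ACAATG, or to the GATA letters AGATAA or AGATAG and their variants with T as the first base.
Cst12, chr2:148789115-148789364, plus strand: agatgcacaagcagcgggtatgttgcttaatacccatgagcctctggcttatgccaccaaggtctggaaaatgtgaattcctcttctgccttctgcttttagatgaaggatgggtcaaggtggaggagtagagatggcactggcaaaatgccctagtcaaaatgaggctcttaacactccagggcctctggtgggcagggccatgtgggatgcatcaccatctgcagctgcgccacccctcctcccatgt
Cst9, chr2:148834897-148835146, plus strand: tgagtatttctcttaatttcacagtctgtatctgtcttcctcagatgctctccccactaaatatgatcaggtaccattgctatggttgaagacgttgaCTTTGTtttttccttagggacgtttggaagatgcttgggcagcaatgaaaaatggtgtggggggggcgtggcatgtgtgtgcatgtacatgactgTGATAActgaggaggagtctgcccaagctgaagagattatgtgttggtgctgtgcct
Serpina5, chr12:104100863-104101112, plus strand: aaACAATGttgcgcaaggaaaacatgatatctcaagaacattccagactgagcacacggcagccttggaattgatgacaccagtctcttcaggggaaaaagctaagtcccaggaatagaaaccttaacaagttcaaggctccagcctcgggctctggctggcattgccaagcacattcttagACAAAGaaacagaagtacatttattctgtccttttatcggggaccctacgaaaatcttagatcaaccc
Gatm, chr2:122611278-122611527, minus strand: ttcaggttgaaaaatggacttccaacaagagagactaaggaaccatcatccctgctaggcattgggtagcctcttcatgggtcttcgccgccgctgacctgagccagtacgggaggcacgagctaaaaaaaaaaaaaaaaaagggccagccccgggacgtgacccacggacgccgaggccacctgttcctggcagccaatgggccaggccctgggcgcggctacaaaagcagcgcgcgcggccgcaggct
The Serpina5 window held 2 SOX matches, which began 248 and 68 bases before the start site. The Cst9 window held a SOX match on the opposite strand, 152 to 147 bases before the start site, and a GATA match 57 to 52 bases before it. Among all 27025 windows of this length, 25.5% held a SOX match and 27.1% a GATA match. Of the 4 Sertoli cell genes with a window, 1 held a SOX match and 0 a GATA match, which is no more than the share of all windows. The windows differed in CpG content. Those of Cst12, Cst9 and Serpina5 held 2, 3 and 5 CpG, and that of Gatm 17, against a median of 6 over all windows. Neither the letters AAGGTCA or AAGGCCA, which Nr5a1 binds (8.94% of windows), nor the cyclic AMP response element TGACGTCA (1.62%) occurred in the windows of the 4 genes. The window of Inha, not shown, ran from base 75507359 to 75507608, within the annotated gene, which starts at base 75507077 on the plus strand. Its lack of matches therefore does not describe the bases before that start. The deposited Cst12 locus began 148 bases before the RefSeq start, that of Gatm 92 and that of Serpina5 52, so part of each window was within the assembled interval.

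The most abundant of the Sertoli cell transcripts encode secreted proteins. Clu encodes clusterin, a secreted chaperone that is a main product of Sertoli cells. The values of its locus (chromosome 14, bases 65968550 to 65981551) were 713, 645 and 538 FPKM in SSC replicates 1, 2 and 3, which ranked it 12 among the 11743 named genes. Clu was detected in every iPSC library, with 6.91, 3.20 and 2.87 FPKM in SSCiPSC and 6.42, 5.51 and 3.78 in fiPSC. The lowest SSC library was 77.9 times the highest iPSC library. Clu was therefore the member with the highest level in both kinds of cell, outside the shared intervals, and not one that reached 0 in iPSC.

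Cst12 and Defb19 lie on chromosome 2 and encode secreted proteins of the cystatin family of protease inhibitors and of the beta-defensin family. Cst12, from 148789217 to 148793694, had 197, 271 and 206 FPKM in SSC. Defb19, from 152576086 to 152580324, had 210, 211 and 193 FPKM. In SSC both were abundant in each library, although the short Defb19 transcript rested on an estimated 62.8 to 230.3 fragments. Both were listed at 0 in all 6 iPSC libraries, where 3 fragments would have given at most 0.46 FPKM for Cst12 and 0.94 for Defb19. The lowest SSC library was therefore at least 428-fold higher than the iPSC libraries for Cst12 and at least 204-fold higher for Defb19, with the limit set by 3 fragments in each library. Such limits and the fragment numbers cover counting error only.

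Serpina5, on chromosome 12 from 104101061 to 104105553, encodes a secreted inhibitor of serine proteases. It had 26.2, 38.5 and 40.3 FPKM in SSC, where replicate 1 was the lowest library, and was listed at 0 in all iPSC libraries. The lowest SSC library was at least 232-fold higher. A second locus of 263 bases without strand, near the 3′ end of Serpina5, had 31.9, 65.0 and 54.5 FPKM in SSC and was also listed at 0 in every iPSC library.

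Gatm, on chromosome 2 from 122595024 to 122611369, encodes the enzyme of the first step of creatine synthesis. Its level was 180, 211 and 168 FPKM in SSC. It was 1.27, 0.81 and 1.25 FPKM in SSCiPSC and 1.26, 2.59 and 1.38 in fiPSC. All 6 iPSC libraries thus kept a low Gatm signal, and the lowest SSC library was 65.0 times the highest of them. A locus on the opposite strand of the same interval also had 74.5, 71.7 and 42.1 FPKM in SSC, against 0.77 or less in iPSC.

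The 3 transcription factors were less abundant than Clu, Cst12, Defb19 and Gatm in every SSC library. Sox9, which directs Sertoli cell fate, had 30.5, 28.0 and 32.1 FPKM at chromosome 11 from 112782215 to 112786115. In iPSC it had at most 0.11 FPKM, and was 0 in SSCiPSC replicate 2. The lowest SSC library was 244 times the highest iPSC library, the largest such ratio among the 5 members above 0 in some iPSC library. The 3 further loci without strand in the 3′ part of the Sox9 gene had between 9.20 and 60.4 FPKM in SSC and at most 0.50 in iPSC.

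Wt1, a zinc finger factor needed to keep Sertoli cells differentiated, had 43.7, 33.8 and 28.4 FPKM in SSC. Its interval on chromosome 2, from 105125011 to 105173709, held 6 loci, of which the one with the highest mean was used, with a mean of 35.3 FPKM in SSC against 76.9 for the sum of the 6. In SSCiPSC it had 0.04, 0.37 and 0.06 FPKM, and in fiPSC 0.65, 0.10 and 1.26. Wt1 was the transcription factor with the highest level in iPSC, in fiPSC replicate 3. Gata4, a zinc finger factor of gonadal somatic cells, had 18.7, 18.1 and 20.2 FPKM in SSC at chromosome 14 from 63199898 to 63271781. In iPSC it had 0.35, 0 and 0 FPKM in SSCiPSC and 0.14, 0.24 and 0.30 in fiPSC.

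Amh and Inha could not be read alone. The plus-strand locus of highest mean in the interval that holds Amh, chr10:80755412-80807636, had 38.8, 36.5 and 40.9 FPKM in SSC and between 5.73 and 9.69 in iPSC. That interval overlaps 5 annotated genes, of which 3 are on the plus strand, so the iPSC signal cannot be assigned to Amh, the hormone that makes the Müllerian ducts regress. For Inha, which encodes the alpha subunit of inhibin, the interval chr1:75474460-75512035 overlaps 4 genes, 2 of them on the plus strand. Its locus of highest mean had 120, 139 and 117 FPKM in SSC. In iPSC it had 1.80, 0.53 and 0.82 FPKM in SSCiPSC and 0.72, 1.25 and 0.61 in fiPSC, and at this locus the groups did not overlap. The other plus-strand locus of that interval did overlap, with 2.77, 0.62 and 1.86 FPKM in SSC and 0.50 to 0.84 in iPSC. The other plus-strand locus of the Amh interval had 16.0, 24.1 and 18.4 FPKM in SSC, which overlapped SSCiPSC with 7.06, 18.2 and 13.3 but not fiPSC with 12.4, 9.29 and 12.5.

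Differences between SSC and each kind of iPSC were tested with limma on log2(FPKM + 1) over all loci that reached 1 FPKM in 3 or more of the 6 libraries. The p-values were adjusted by the method of Benjamini and Hochberg. Both comparisons use the same 3 SSC libraries and are not independent. All 8 genes with a locus of their own were higher in SSC than in SSCiPSC, where 24.1% of the 36544 loci tested were higher in SSC, and in fiPSC, where 23.7% of 38007 were. Of the 8, 7 passed the filter on low values through the SSC libraries alone in the first comparison and 6 in the second, so this count describes the genes and adds no weight to the values. The median log2 fold change of the 8 was 5.81 against SSCiPSC and 5.63 against fiPSC, beside -0.11 and -0.17 over all loci tested.

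By limma, SSC exceeded SSCiPSC in Clu by 6.96 ± 0.29 on the log2 scale (± standard error, adjusted p = 4.2e-05) and fiPSC by 6.68 ± 0.20 (adjusted p = 1.68e-05). For Gatm the differences were 6.48 ± 0.17 (adjusted p = 9.87e-06) and 6.12 ± 0.21 (adjusted p = 2.44e-05). These 2 genes had iPSC values that could be measured in every library, so their fold changes depend less on the pseudocount than those of members at 0. Cst12 and Defb19, at 0 in iPSC, had fitted values of 7.81 and 7.68 in both comparisons, which depend on the pseudocount. Serpina5 had 5.15, also in both.

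Among the transcription factors, Wt1 differed by 4.97 ± 0.26 (adjusted p = 7.36e-05) from SSCiPSC and by 4.48 ± 0.32 (adjusted p = 0.000158) from fiPSC. Sox9 had 4.93 and 4.85, and Gata4 4.18 and 4.03. The standard errors of all 8 genes lay well under their fold changes. The interval of Inha had 5.99 and 6.10, near the values of Gatm. The interval of Amh had 2.14 ± 0.21 (adjusted p = 0.000437) and 2.02 ± 0.11 (adjusted p = 8.96e-05), the smallest difference of the 10.

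**Figure D2:**
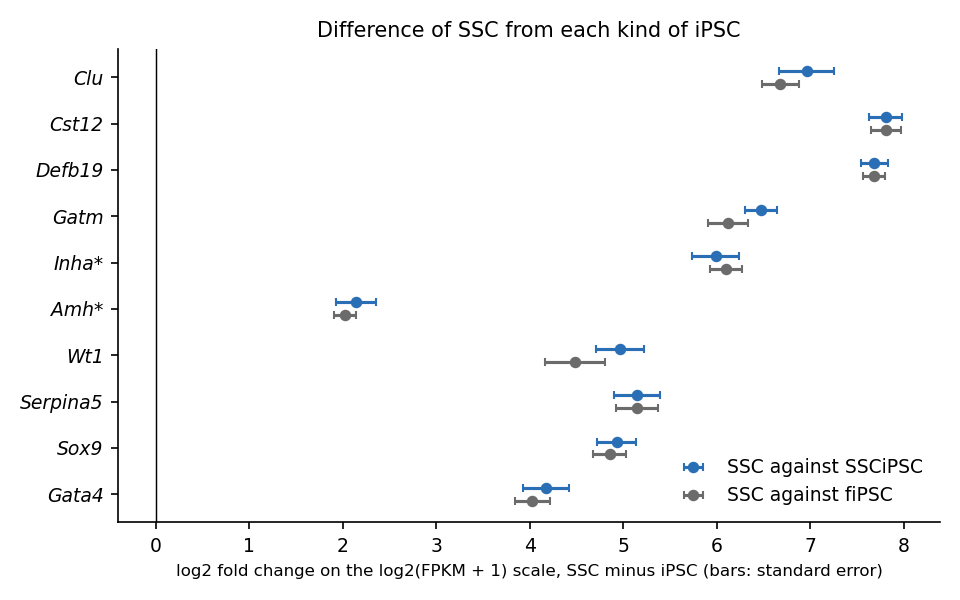
Log2 fold change of SSC against SSCiPSC (blue) and against fiPSC (grey) on the log2(FPKM + 1) scale, with standard errors from limma, for the 10 genes ordered by their mean level in SSC. All values are above 0, from 2.02 for the interval of Amh to 7.81 for Cst12.

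Between fiPSC and SSCiPSC, 2 of the 8 genes passed the filter on low values. The log2 difference was 0.28 ± 0.32 for Clu (adjusted p = 0.775) and 0.35 ± 0.24 for Gatm (adjusted p = 0.609), both coded as fiPSC minus SSCiPSC. Neither passed the threshold of an adjusted p below 0.05 by limma, which 0.0678% of 33948 loci passed in either direction. At an unadjusted p below 0.05 the count was also 0 of 2. The traces of the other members in iPSC were too low to be tested. In fiPSC replicates 1, 2 and 3 the summed level of 8 fibroblast genes was 35.4, 11.1 and 43.7 FPKM, an order of libraries that Wt1 and Sox9 shared and Clu, Gatm and Gata4 did not. In SSCiPSC it was 30.7, 21.0 and 44.9 FPKM, with Wt1 highest in replicate 2. The part of fibroblasts in these traces was not tested.

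Set against the rest of the transcriptome, the 8 genes lay far below the line of equal level. Clu, Cst12, Defb19 and Gatm ranked 12, 85, 113 and 129 by mean level in SSC among the named genes, and Gata4, the least abundant, 3768. Of the named genes, 53 were above 0 in all SSC libraries and listed at 0 in all iPSC libraries. Of these, 18 had a mean of at least 10 FPKM in SSC and 5 of at least 100, namely Tpsab1, Cst12, Defb19, Cst9 and Mcpt4. Tpsab1 and Mcpt4 encode proteases of mast cells, and the other 3 are cystatins and a beta-defensin of Sertoli cells.

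**Figure D3:**
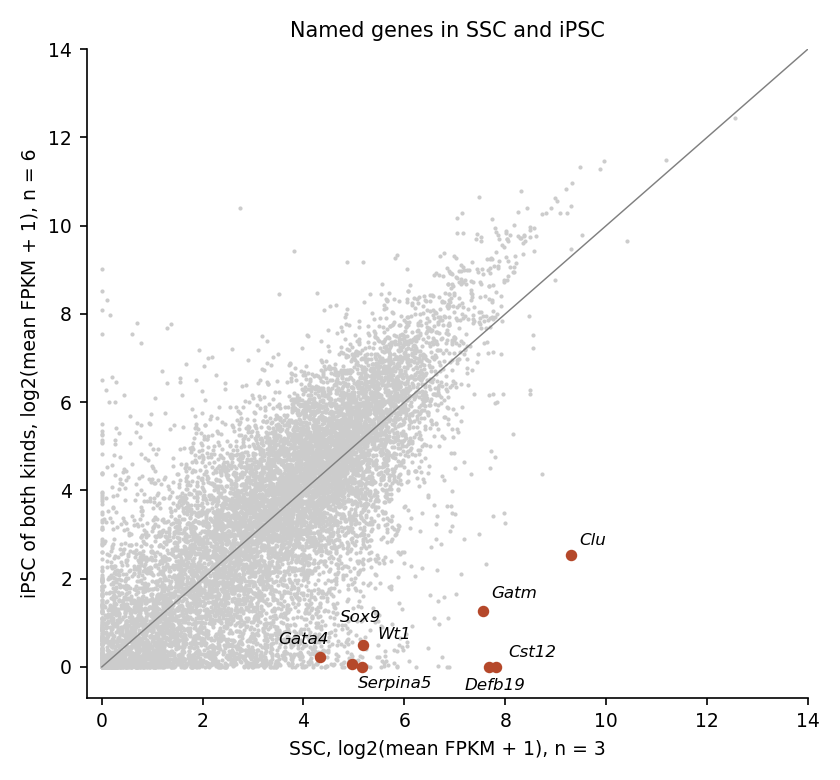
Mean level of each named gene in SSC (n = 3) against its mean over the 6 iPSC libraries, both as log2(mean FPKM + 1), with a line of equal level. The 8 Sertoli cell genes with a locus of their own (red) lie at the lower edge of the cloud, and Cst12, Defb19 and Serpina5 lie at 0 in iPSC.

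The other genes known from Sertoli cells were arranged in lists by role. With the 10 genes above, these lists held 63 genes, 50 of them with their own locus, and 48 could be tested. Against SSCiPSC, 40 of the 48 were higher in SSC, 3 were lower and 5 did not pass the threshold, beside 24.1% higher and 26.2% lower among all loci. Against fiPSC, 39 were higher, 5 lower and 4 did not pass, beside 23.7% and 28.0%. Their median log2 difference was 2.69 and 2.80. The 40 and 39 include the 8 members, and 28 and 24 of the 48 passed the filter through the SSC libraries alone. None of the 50 was listed at 0 in all SSC libraries.

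**Figure D4:**
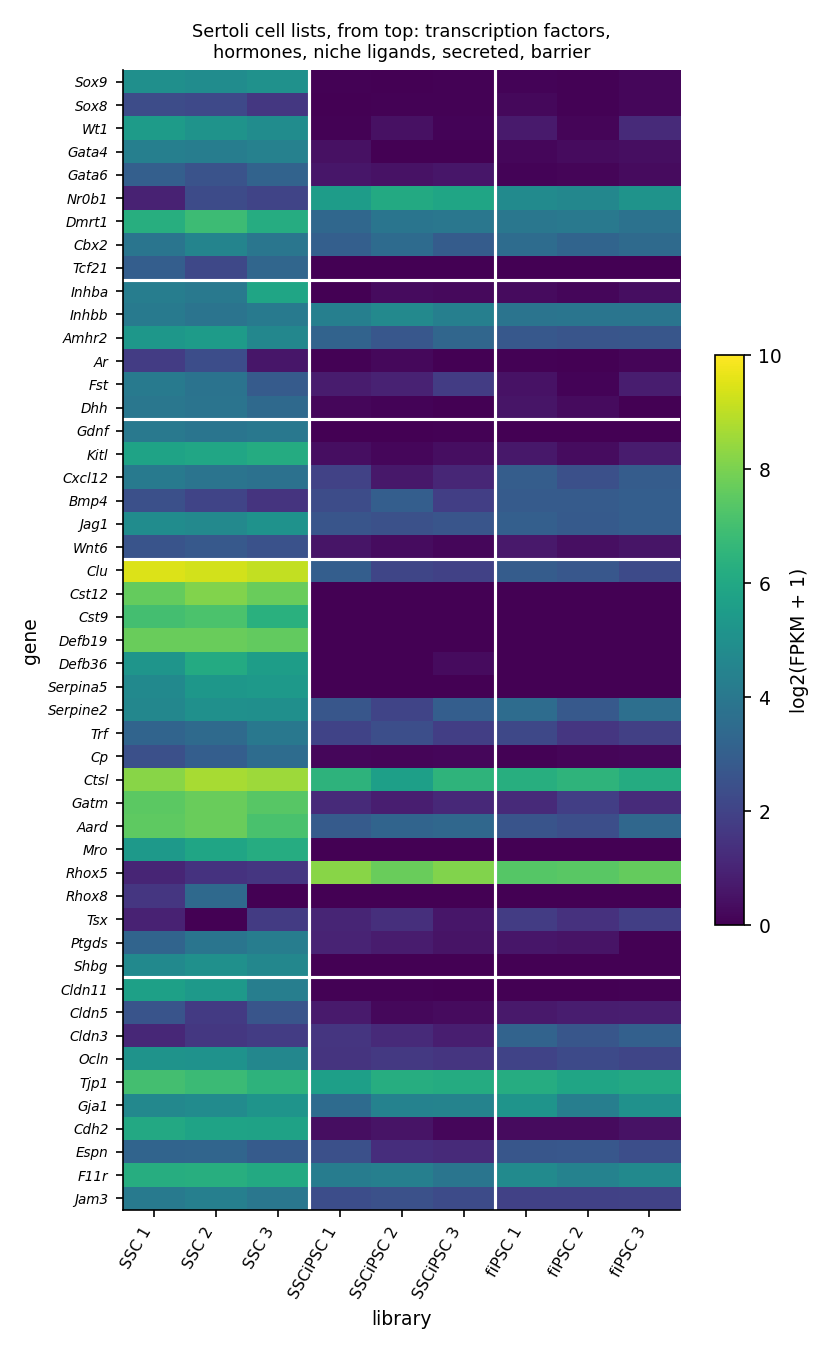
Level of genes of 5 Sertoli cell lists in each of the 9 libraries, as log2(FPKM + 1) by colour, with white lines between lists and between groups. Most rows are brighter in the 3 SSC columns, while Rhox5 and Nr0b1 are bright in the 6 iPSC columns.

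Of the transcription factors, 9 were tested, 8 were higher in SSC and 1, Nr0b1, was lower in both comparisons. The shares of all loci were 24.1% higher and 26.2% lower against SSCiPSC, and 23.7% and 28.0% against fiPSC. The 8 include the members Sox9, Wt1 and Gata4, and 6 of the 9 passed the filter through the SSC libraries alone in each comparison. Dmrt1, which germ cells express as well, had 76.8, 114 and 72.5 FPKM in SSC and between 9.16 and 15.3 in iPSC. Gata6, a relative of Gata4, had 7.26, 4.92 and 8.08 FPKM in SSC and at most 0.52 in iPSC. Nr0b1, a nuclear receptor that pluripotent cells also use, had 0.95, 3.89 and 3.11 FPKM in SSC against 23.6 to 65.5 in iPSC. Nr5a1 had no locus that fitted its whole gene. A pair of shorter loci within it, chosen after their values were seen, had between 4.67 and 18.8 FPKM in SSC and at most 0.07 in iPSC.

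Of the genes for hormones and their receptors, 5 were tested and 4 were higher in SSC in both comparisons. The shares of all loci higher in SSC were 24.1% against SSCiPSC and 23.7% against fiPSC. Only through the SSC libraries did 3 of the 5 pass the filter, in each comparison. Dhh, the hedgehog ligand of Sertoli cells, had 14.7, 13.3 and 9.78 FPKM in SSC and at most 0.47 in iPSC. Inhba, which encodes an activin subunit, had 17.6 and 15.3 FPKM in SSC replicates 1 and 2 and 57.2 in replicate 3. Inhbb, which encodes another such subunit, did not pass the threshold in either comparison, though under median-ratio scaling it was lower in SSC than in SSCiPSC, with 15.9, 13.3 and 15.7 FPKM in SSC and 13.5 to 25.0 in iPSC. The alpha subunit interval and Inhbb thus differed in pattern, although both encode subunits of inhibin B. Fshr, the receptor for follicle stimulating hormone, had only loci covering parts of its gene, with at most 6.46 FPKM in SSC and 0 in iPSC, and these were chosen after their values were seen.

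Over the wider inhibin and activin pathway, 10 genes were tested, of which 7 were higher and 2 lower in SSC in both comparisons. Of all loci, 24.1% were higher and 26.2% lower against SSCiPSC, and 23.7% and 28.0% against fiPSC, so the share of lower genes was near the background. The lower genes, Acvr1b and Acvr2b, encode activin receptors, whereas the receptor gene Acvr2a was higher, with 16.1, 15.4 and 17.1 FPKM in SSC and 3.72 to 5.52 in iPSC. Fst, which encodes the activin antagonist follistatin, had 16.0, 13.2 and 6.29 FPKM in SSC and at most 2.40 in iPSC. Of 5 genes of the Amh receptor pathway, 3 were higher in SSC against SSCiPSC and 4 against fiPSC, and none was lower. Amhr2, the receptor of Amh itself, had 38.7, 43.5 and 23.9 FPKM in SSC and 5.16 to 8.95 in iPSC.

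Of the ligands that Sertoli cells supply to germ cells, 6 were tested. In both comparisons Kitl, Gdnf, Cxcl12, Jag1 and Wnt6 were higher in SSC, beside 24.1% of all loci against SSCiPSC and 23.7% against fiPSC. Through the SSC libraries alone 4 and 3 of the 6 passed the filter. Kitl had 55.3, 58.8 and 69.9 FPKM in SSC and at most 0.68 in iPSC. Gdnf had 15.3, 13.7 and 15.1 FPKM in SSC and was above 0 in 1 iPSC library, at 0.04 FPKM. Its receptor genes Gfra1 and Ret were measured in the same SSC libraries, at 37.7, 34.1 and 23.9 FPKM and at 51.0, 52.8 and 40.3 FPKM. Bmp4 was lower in SSC than in fiPSC, with 4.37, 3.17 and 1.87 FPKM against 6.24 to 6.91, and did not pass the threshold against SSCiPSC.

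The list of secreted and metabolic genes, which holds 5 of the members, had 17 genes tested. In both comparisons 15 were higher and 1 lower in SSC. Beside these, 24.1% of all loci were higher and 26.2% lower against SSCiPSC, and 23.7% and 28.0% against fiPSC. The filter was passed through the SSC libraries alone by 11 and 9 of the 17. Ctsl, a lysosomal protease that Sertoli cells release, had 298, 412 and 372 FPKM in SSC and 48.6 to 90.5 in iPSC. Aard had 180, 211 and 141 FPKM in SSC and 4.24 to 9.25 in iPSC. Shbg, which encodes the androgen-binding protein, had 25.6, 31.4 and 23.7 FPKM in SSC and was listed at 0 in all iPSC libraries, at least 132-fold lower than the lowest SSC library. Mro was also listed at 0 there and had 40.6, 57.9 and 72.8 FPKM in SSC. The gene that was lower in SSC was Rhox5, a homeobox gene of Sertoli cells under androgen and also of pluripotent cells, with 1.03, 1.77 and 1.98 FPKM in SSC against 162 to 296 in iPSC.

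Relatives of the members in the same gene clusters were seen as well. Cst9, in the same cluster as Cst12, had 129, 143 and 81.0 FPKM in SSC and Cst8 7.70, 13.7 and 24.1, and both were listed at 0 in all iPSC libraries. Cst3, a cystatin that most tissues make, had 201, 209 and 240 FPKM in SSC and 57.4 to 106 in iPSC. Of 7 cystatin genes in the list 4 were tested and called higher in SSC, beside 24.1% of all loci against SSCiPSC and 23.7% against fiPSC. However, Cst8, Cst9 and Cst12 passed the filter through the SSC libraries alone. Defb36, in the same cluster as Defb19, had 36.2, 68.5 and 46.4 FPKM in SSC and 0.23 in 1 iPSC library. The 10 other beta-defensin genes listed had no locus of their own. Of 16 clade A serpin genes, Serpina5 was the single one tested.

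Of 5 genes of creatine metabolism tested, 2 were higher and 2 lower in SSC in both comparisons, beside 24.1% and 26.2% of all loci against SSCiPSC and 23.7% and 28.0% against fiPSC. Gamt in both comparisons and Gatm against SSCiPSC passed the filter through the SSC libraries alone. Gamt, whose enzyme follows that of Gatm, had 10.4, 11.1 and 8.30 FPKM in SSC and at most 0.89 in iPSC. The creatine kinase genes Ckb and Ckmt1 were lower in SSC in both comparisons. Ckb had 2.61, 4.47 and 7.79 FPKM in SSC and 97.1 to 201 in iPSC. Slc6a8, the creatine transporter gene, did not pass the threshold in either comparison, but was lower in SSC than in SSCiPSC under median-ratio scaling.

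Of 11 barrier and junction genes tested, 8 were higher and 1 lower in SSC than in SSCiPSC, beside 24.1% and 26.2% of all loci. Against fiPSC, 7 were higher and 2 lower, beside 23.7% and 28.0%. The filter was passed through the SSC libraries alone by 4 and 3 of the 11. Cdh2, which encodes N-cadherin, had 64.0, 54.1 and 53.4 FPKM in SSC and at most 0.43 in iPSC. Cldn11, the main claudin of the Sertoli cell barrier, had 51.1, 42.0 and 18.6 FPKM in SSC and at most 0.04 in iPSC. Ocln had 34.0, 33.1 and 24.0 FPKM in SSC and 1.83 to 3.71 in iPSC. Cldn11 was the most variable of these 3, with its lowest value in SSC replicate 3. Cldn3 was instead lower in SSC than in fiPSC, with 1.15, 2.06 and 2.46 FPKM against 5.36 to 8.08, and did not pass the threshold against SSCiPSC. Gja1 did not pass it in either comparison.

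The fraction labelled SSC was checked against germ cell and other markers. Of 17 germ line genes tested, 12 were higher and 4 lower in SSC in both comparisons, beside 24.1% and 26.2% of all loci against SSCiPSC and 23.7% and 28.0% against fiPSC, and 5 of the 17 passed the filter through the SSC libraries alone. Their summed level was 866, 1077 and 726 FPKM in SSC replicates 1, 2 and 3. Dazl, the most abundant of them, had 194, 263 and 174 FPKM in SSC and Zbtb16, a factor of undifferentiated spermatogonia, 72.0, 77.4 and 51.9. The 4 lower genes were Sall4, Etv5, Sohlh2 and Kit. Of these, Etv5 had 38.8, 30.7 and 28.9 FPKM in SSC and 94.0 to 143 in iPSC. The libraries thus held germ cell transcripts, with Clu above each of these germ line genes in every SSC library. All 8 pluripotency genes tested were lower in SSC in both comparisons, beside 26.2% and 28.0% of all loci. Klf4 and Lin28a lost their calls under quantile normalization. Nanog was listed at 0 in the 3 SSC libraries and at 270 to 483 FPKM in iPSC.

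Markers of other testis and blood-borne cells were also present in SSC, and several of these lists differed in sum between libraries. The 8 members summed to nearly the same level in each SSC library, with a coefficient of variation of 9.03%. The 4 mast cell genes summed to 94.9, 370 and 1022 FPKM in replicates 1, 2 and 3, led by Tpsab1, and to at most 0.08 in iPSC. The 6 macrophage genes, led by C1qa, summed to 46.6, 14.7 and 141 FPKM, and the 8 fibroblast genes, led by Col3a1, to 97.6, 89.5 and 289. Replicate 3 was the highest library for all 3 of these lists and the lowest for the sum of the Sertoli cell members, which was 0.86 times that of replicate 1. No gene of these 3 lists was at 0 in all SSC libraries. The 4 mast cell genes, 4 of 5 macrophage genes tested and 5 of 8 fibroblast genes were higher in SSC than in SSCiPSC, beside 24.1% of all loci, and 4, 3 and 5 were higher than in fiPSC, beside 23.7%. In both comparisons 4 of the mast cell genes, 4 of the macrophage genes and 2 of the fibroblast genes passed the filter through the SSC libraries alone, so these counts are a description.

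The 4 Leydig cell genes with a locus summed to 171, 154 and 269 FPKM, led by Cyp11a1 with 96.1, 69.4 and 155, and all 4 passed the filter through the SSC libraries alone and were called higher there. Of 4 peritubular myoid genes tested, 2 were higher in SSC, and their sum of 85.8, 76.9 and 70.2 FPKM was led by Acta2. The 6 endothelial genes summed to 122, 61.1 and 102 FPKM, led by Pecam1. Of these, 4 were higher in SSC and Pecam1 was lower in both comparisons. Through the SSC libraries alone 4 endothelial and 2 peritubular myoid genes passed the filter, and the shares of all loci beside these 3 lists are again 24.1% higher and 26.2% lower against SSCiPSC and 23.7% and 28.0% against fiPSC. Of the blood genes, Alas2 alone was tested and did not pass the threshold, and the list summed to 12.1, 4.21 and 14.2 FPKM. The part of these cells in the levels of the Sertoli cell genes was not tested.

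**Figure D5:**
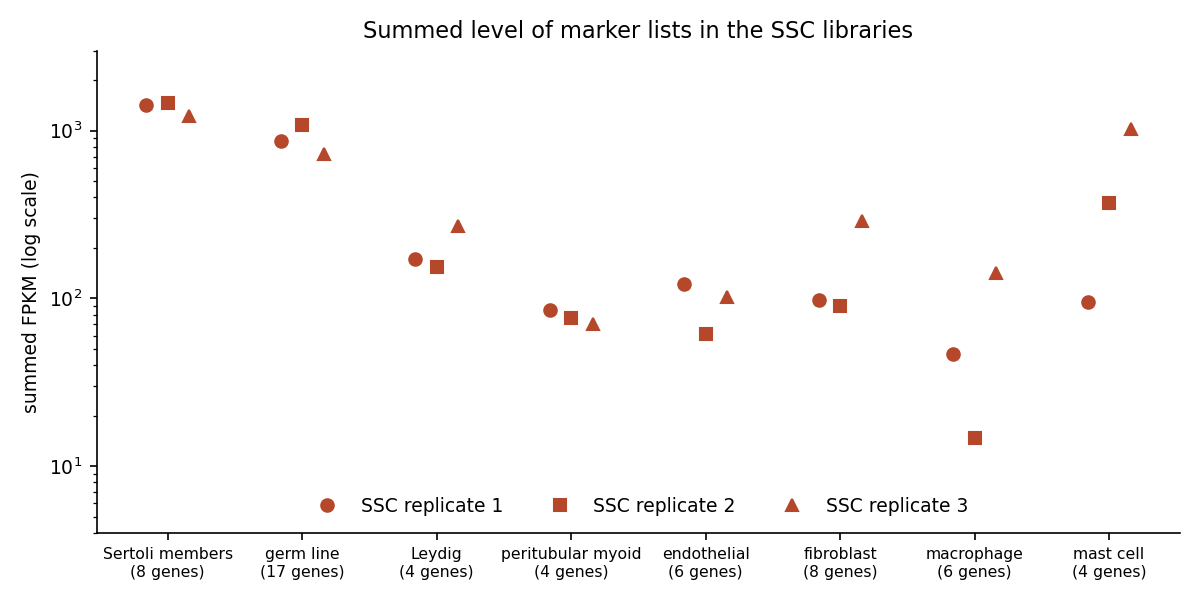
Summed FPKM of marker lists in the 3 SSC libraries on a log scale, with a symbol for each replicate. The 8 Sertoli cell genes lie between 1227 and 1457 FPKM in all 3 libraries, while the 4 mast cell genes range from 94.9 to 1022.

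The spread between SSC libraries differed from gene to gene. The coefficient of variation was 4.98% for Defb19, 5.84% for Gata4 and 6.85% for Sox9. It was 11.9% for Gatm, 13.9% for Clu and 17.9% for Cst12, and reached 21.9% for Wt1 and 22.0% for Serpina5. The median of the 8 was 12.9%, near the median of 14.7% over the 5890 named genes with at least 10 FPKM in SSC. The medians of the germ line, Leydig, fibroblast, mast cell and macrophage lists, over genes of that level, were 22.3%, 41.0%, 73.4%, 98.4% and 102%, and that of the peritubular myoid list was 15.1% and that of the endothelial list 33.9%. Of the Sertoli cell lists, the niche ligands had a median of 13.4% and the barrier and junction genes 15.6%. The secreted and metabolic genes had 18.9%, the transcription factors 21.9%, the hormones and receptors 28.8% and all 6 lists together, members included, 18.1%. The members thus varied about as much as other genes of this level, and no difference between lists was tested.

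For each gene with its own locus, the most similar named genes were sought by the distance of log2(FPKM + 1) over the 9 libraries. Cst9 was the nearest to both Cst12 (distance 1.74) and Defb19 (1.53), followed for both by Cyp11a1, a steroid enzyme of Leydig cells (2.33 and 2.07). Sox9 lay closest to Pappa (0.34) and Daam2 (0.48). Pappa had 32.1, 26.8 and 27.6 FPKM in SSC and at most 0.15 in iPSC, which resembles Sox9 in each library. The nearest genes were Glis3 (0.87) and Hivep2 (0.99) for Wt1, Igsf11 (0.53) and Egr4 (0.59) for Gata4, and Il15ra (0.69) and Syt12 (0.71) for Serpina5. Gatm lay nearest to Taf7l (1.67) and Cpe (1.80). Clu had no close neighbour, with Anxa5 at 3.18 and Gm12260 at 3.57. Since genes low in all iPSC libraries and of like level in SSC are close by this measure, it does not separate cell types, as Cyp11a1 beside Cst12 shows.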

How the data were processed

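RNA of 9 libraries was compared, 3 per group, grouped by the source names in the sample labels. The values deposited by the authors are FPKM, 1 per locus and library. The submitters' processing notes name Trimmomatic 0.32, TopHat2 2.0.9, Bowtie2 2.1.0, Cufflinks 2.2.1 and Cuffdiff, and the build mm9. The coordinates fitted GRCm38 instead, since 92.8% of stranded loci overlapped a coding gene of their strand, against 38.3% after a shift of 1000000 bp. Of 54914 loci, 1 with a blank value was left out. A locus was named for the GENCODE M21 gene of its strand with which it shared at least 50% of the length of each. Gene names printed in the table were not used. Depth was taken from the spacing of the lowest FPKM values, which are multiples of 1 fragment.

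The test was limma 3.58.1 under R 4.3.3, with lmFit and a trended eBayes, applied to log2(FPKM + 1) at an adjusted p of 0.05. Fold changes on this scale understate those of low genes. In simulated data the test recovered 85.1% of loci changed by 3 on the log2 scale for SSC against SSCiPSC (36544 loci) and 88.1% for SSC against fiPSC (38007 loci), but 15.2% and 36.4% of loci changed by 1. With 200 loci changed in each simulation, 28 and 39 loci that had not been changed were also called. The genes named are the members, the genes of the marker lists and the 2 nearest genes of each member, and members and lists were chosen with earlier results of these data known. The alternatives were another pseudocount, filter, scaling, threshold, variance model, choice of loci or libraries, and the replicate number as a block. A gene of the lists is not reported by name here. A summary of feature numbers from the authors' software was not used.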

Additional observations from a re-analysis of the deposited data

How the results depend on the processing

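Each of the 10 genes or intervals kept its direction and its call in SSC against SSCiPSC and against fiPSC under all alternatives that gave it a value, which is no sign of stability since most passed the filter through the SSC libraries alone. With an overlap of 80% in place of 50%, 7 members kept their own locus and Sox9 lost it, and summing the 6 loci of Wt1 gave 76.9 FPKM in SSC in place of 35.3. The number of loci past the threshold was 18396 for SSC against SSCiPSC, 10070 where the mean had to reach 5 FPKM and 7189 with 1 locus per named gene, where fewer loci were tested. For SSC against fiPSC it was 19680, 10528 and 7471. For fiPSC against SSCiPSC it was 23, and 9 at an adjusted p below 0.01, 10 with no filter on low values, 10 with the filter on the mean, 11 with all 9 libraries in the fit and 49 with 1 locus per named gene. With each library left out in turn it ranged from 14477 to 18577, from 15301 to 20731, and from 6 (without fiPSC replicate 1) to 20. Median-ratio scaling moved the median log2 difference of all loci from -0.11 to -0.29 and from -0.17 to -0.35. Under it Cbx2 lost its call in both comparisons and Tjp1, Smad2 and Smad5 lost theirs against SSCiPSC, where Inhbb and Slc6a8 gained one as lower in SSC. Quantile normalization removed the calls of Sall4, Pecam1, Klf4 and Lin28a in both comparisons and added those of Smad1 in both and of Gja1 and Bmpr1a against SSCiPSC, all higher in SSC. With a pseudocount of 0.1 Smad1 also passed against fiPSC, and no gene of the lists that was called changed direction under another scaling or pseudocount.

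With the replicate number as a block, 16926, 17546 and 6 loci passed the threshold for SSC against SSCiPSC, SSC against fiPSC and fiPSC against SSCiPSC. Libraries of the same number did not deviate together, with correlations of -0.00191, 0.0267 and -0.00197 for replicates 1, 2 and 3 of SSC and SSCiPSC and of -0.00236, -0.0154 and -0.0206 for SSC and fiPSC, so the numbers were not taken as pairs.

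Depth limits the SSC libraries most, in which 18.9% to 35.4% of loci were listed at 0, against 9.64% to 13.9% in iPSC. Genes at low levels in SSC rest on few fragments, such as the 8.78 to 41.0 estimated for Cst8.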
